A study of Mus musculus with 4 samples.

Results

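The 8 neutrophil granule genes Ngp, Camp, Ltf, Lcn2, S100a8, S100a9, Mmp9 and Mmp8 were taken by symbol from a deposited table of 18804 genes measured by RNA-seq in liver ILC1s, and all 8 had a row. ILC1s are group 1 innate lymphoid cells, tissue-resident lymphocytes related to natural killer cells. The compared groups were Cd200r knockout mice (replicates 1 and 2) and WT mice (replicates 1 and 3). All mice are labelled as 5 to 8 weeks old and at homeostasis. CD200R, the product of the targeted gene, is an inhibitory receptor, and the comparison asks how transcripts differ when the gene is targeted. The sources used here do not give the kind of knockout allele, the sorting gates or whether a library came from 1 mouse or from several. P-values therefore measure only how far these 4 libraries spread, and that spread may be technical.

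Neutrophils build their granules in waves while they mature in the bone marrow. Azurophil granule proteins such as myeloperoxidase are made first, specific granule proteins such as lactoferrin, cathelicidin, lipocalin 2 and NGP follow in myelocytes and metamyelocytes, and gelatinase granule proteins come later. Transcripts of the early waves are mostly lost from mature neutrophils, whereas S100a8 and S100a9 remain among the most abundant transcripts of the mature cell. Ngp, Camp and Ltf are therefore called precursor genes here, and S100a8, S100a9 and Mmp9 mature genes.

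Values are FPKM, the fragments of a gene per kilobase of its length and per 1e6 fragments counted in the library. The deposited values could be turned back into whole fragments, since each value is a whole number of fragments divided by a whole gene length and by the library's depth. Inferred depth was 41164777 and 39493877 fragments in knockout replicates 1 and 2, and 39349312 and 38972600 in WT replicates 1 and 3. For each of the 8 genes a whole length was found at which all 4 libraries lay within 6.14e-07 of a whole fragment. The labels were checked on the targeted gene, Cd200r1, which measured 110.7 and 103.7 FPKM in the knockout libraries, against 161.5 and 173.3 FPKM in the WT libraries, so its transcript was lower and not absent. Ncr1, an activating receptor of group 1 ILCs and NK cells, measured from 1486 to 1505 FPKM in knockout and from 1653 to 1748 FPKM in WT, and all 12 listed markers of liver ILC1s passed the filter on low values used below. All gene tests below are limma's linear model on log2(FPKM + 1) with a mean-variance trend, for the 9476 genes whose mean over the libraries reached 1 FPKM, and a gene was called at a Benjamini-Hochberg adjusted p under 0.05.

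The 3 precursor genes lie near each other on mouse chromosome 9, and the bases before their starts are shown because these genes were high in the same libraries. On GRCm38, Camp (Entrez 12796) spans chr9:109847377-109849456, Ngp (Entrez 18054) chr9:110419808-110423012 and Ltf (Entrez 17002) chr9:111019292-111042766. Below are the 250 bases before the RefSeq start of each, from RefSeq on GRCm38.p6, with S100a8 (Entrez 20201, chr3:90669071-90670034) for comparison, written 5′ to 3′ on the strand of the gene. Ngp is read from chr9:110419558-110419807 on the plus strand, Camp from chr9:109849457-109849706 on the minus strand, Ltf from chr9:111019042-111019291 on the plus strand and S100a8 from chr3:90668821-90669070 on the plus strand. Capitals mark the letters TTGCNNAA, a form of the site of C/EBP factors, GAGGAA, a form of the site of the ETS factor PU.1, and TATAAA, the TATA box, each searched on both strands.
Ngp: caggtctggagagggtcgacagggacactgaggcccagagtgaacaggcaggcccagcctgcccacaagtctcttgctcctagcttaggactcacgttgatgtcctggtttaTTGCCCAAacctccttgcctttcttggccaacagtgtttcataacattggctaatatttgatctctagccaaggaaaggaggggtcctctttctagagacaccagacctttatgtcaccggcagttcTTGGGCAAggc
Camp: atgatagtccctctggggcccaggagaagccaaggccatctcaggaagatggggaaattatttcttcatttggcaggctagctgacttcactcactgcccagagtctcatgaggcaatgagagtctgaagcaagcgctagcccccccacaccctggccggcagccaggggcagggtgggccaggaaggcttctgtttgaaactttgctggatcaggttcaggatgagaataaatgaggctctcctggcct
Ltf: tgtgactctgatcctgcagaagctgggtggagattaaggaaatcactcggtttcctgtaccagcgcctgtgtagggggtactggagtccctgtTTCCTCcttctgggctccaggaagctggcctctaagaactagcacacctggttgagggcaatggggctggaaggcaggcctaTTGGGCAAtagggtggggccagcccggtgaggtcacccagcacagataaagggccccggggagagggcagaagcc
S100a8: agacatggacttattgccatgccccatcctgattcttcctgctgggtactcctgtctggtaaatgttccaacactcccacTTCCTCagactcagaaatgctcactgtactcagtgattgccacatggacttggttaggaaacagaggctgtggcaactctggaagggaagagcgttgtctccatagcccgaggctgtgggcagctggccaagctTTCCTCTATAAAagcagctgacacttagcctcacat

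C/EBP and PU.1 factors act in granulocyte development. The C/EBP letters were found at 2 places before Ngp, from 138 to 131 and from 11 to 4 bases before the start, at 1 place before Ltf, from 75 to 68 bases, and at none before Camp. Ltf also held GAGGAA, on the opposite strand, from 157 to 152 bases before the start. S100a8 held it at 2 places, and its second match, from 36 to 31 bases before the start, runs without a gap into TATAAA, from 30 to 25 bases. No marked matches overlapped. Promoter sequence was at hand for 7 members and not for Mmp9. Among these 7, the C/EBP letters were present before Ngp, Ltf, Lcn2, S100a9 and Mmp8. Of 32851 mouse promoter windows of this length, 9.56% held the C/EBP letters, 23.3% GAGGAA and 12.4% TATAAA. A match is a description of the letters in this window.

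The precursor genes were low in the knockout libraries and close to 0 in the WT libraries. Ngp, a protein of specific granules related to cystatins and cathelicidins, measured 3.77 and 10.1 FPKM in knockout replicates 1 and 2, against 0.109 and 0.199 FPKM in WT replicates 1 and 3. Behind these values stood 180 and 463 fragments in the knockout libraries, against 5 and 9 fragments in the WT libraries. Both knockout libraries were above both WT libraries, and knockout replicate 2 held 2.68 times the level of replicate 1. Ngp averaged 6.93 ± 4.48 FPKM in knockout and 0.154 ± 0.0633 FPKM in WT (SD, n = 2 libraries each), which is 44.96-fold higher in knockout. It rose, with a log2 fold change of 2.66 on the log2(FPKM + 1) scale (SE 0.34, limma adjusted p = 0.00242). Without knockout replicate 2, which leaves 1 knockout library, the log2 fold change of Ngp was 2.05. The call of Ngp ended without the mean-variance trend (adjusted p = 0.0523), with no filter on low values (adjusted p = 0.324) and with limma's voom on the recovered fragments (adjusted p = 0.217).

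Camp, which encodes cathelicidin, the precursor of an antimicrobial peptide, showed the same order of libraries at a lower level. Camp measured 1.18 and 3.38 FPKM in the knockout libraries, from 29 and 80 fragments, against 0 and 0.0857 FPKM in the WT libraries, from 0 and 2 fragments. The 0 of WT replicate 1 allows up to 0.127 FPKM at a limit of 3 fragments. Pooled over libraries and scaled by depth, Camp fragments were 52.9 times as frequent in knockout as in WT, with an exact 95% interval from 14.3 to 443 that covers counting error only. On the log2(FPKM + 1) scale Camp rose by 1.57 (SE 0.32, limma adjusted p = 0.0223). Without knockout replicate 2, which leaves 1 knockout library, it rose by 1.06. Fits that leave a library out are given by effect size only. Among alternatives that keep every library, its call was lost with a pseudocount of 5 FPKM (limma adjusted p = 0.0583) and with quantile normalization (0.0524). The call was also lost without the trend (0.108), with voom (0.301) and with no filter (0.371).

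Ltf, which encodes lactoferrin, the iron-binding protein of specific granules, had a mean of 0.552 FPKM and was below the filter, so it entered no main test. Ltf measured 0.842 and 1.33 FPKM in knockout, from 95 and 144 fragments, against 0.0371 and 0 FPKM in WT, from 4 and 0 fragments. The 0 of WT replicate 3 allows up to 0.0281 FPKM. Its pooled fragments were 58.0 times as frequent in knockout as in WT (exact 95% interval 22.4 to 215, counting error only). With limma's voom on recovered fragments, which counts every gene with at least 10 fragments in at least 2 libraries, Ltf had a log2 fold change of 6.24 (SE 1.96) and did not pass (adjusted p = 0.20). As TPM (transcripts per 1e6), on which scale it reached the filter, Ltf passed at 1.56 (limma adjusted p = 0.035). Ngp and Camp reached the filter through their knockout values alone, so among precursor genes only those high in knockout could be tested.

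Lcn2 (Entrez 16819, chr2:32384637-32387739) encodes lipocalin 2, a specific granule protein that binds bacterial iron carriers, and was almost unread. It gave 0 and 3 fragments in the knockout libraries, against 0 and 1 in the WT libraries, or at most 0.0891 FPKM. The 0 of knockout replicate 1 allows up to 0.0854 FPKM and that of WT replicate 1 up to 0.0894 FPKM, so no difference was detectable at this depth. Per length, its level was far below that of Ngp, also a specific granule gene, in both knockout libraries.

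**Figure D1:**
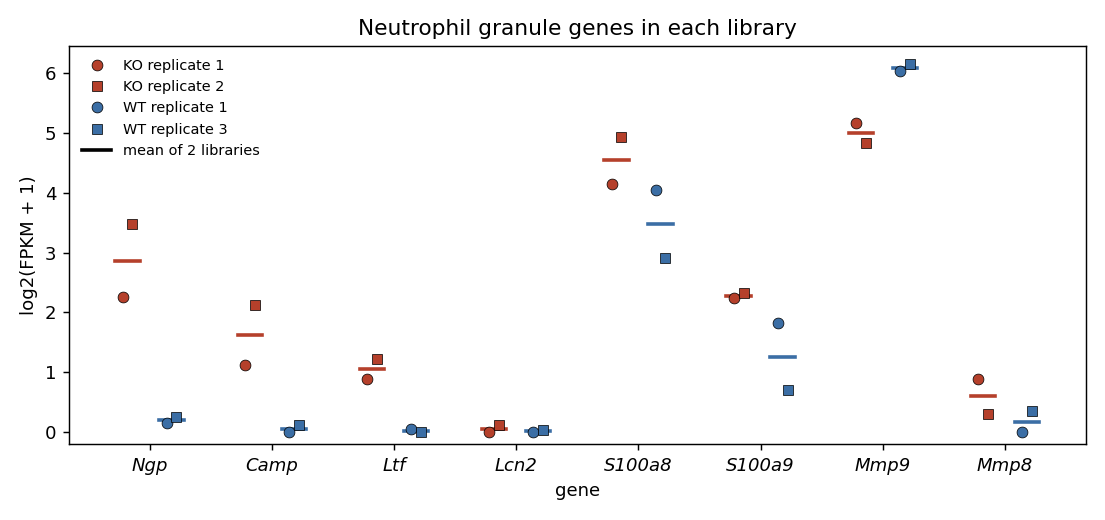
The vertical axis is log2(FPKM + 1) for each of the 8 granule genes. Circles and squares are single libraries, knockout in red to the left and WT in blue to the right, and bars are means of 2 libraries. Ngp, Camp, Ltf, S100a8 and S100a9 are above WT in both knockout libraries, and Mmp9 is below WT in both. The knockout and WT values of Lcn2 and Mmp8 overlap.

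The mature genes S100a8 and S100a9 differed less between the groups and did not pass. Their products form calprotectin, a protein of the neutrophil cytosol that binds zinc and manganese. S100a8 measured 16.8 and 29.3 FPKM in the knockout libraries, from 271 and 454 fragments, against 15.5 and 6.55 FPKM in the WT libraries, from 239 and 100 fragments. Knockout replicate 1 and WT replicate 1 were close, and WT replicate 3 was the lowest. S100a8 averaged 23.1 ± 8.86 FPKM in knockout and 11.02 ± 6.33 FPKM in WT (SD, n = 2 each), with a log2 fold change of 1.06 (SE 0.33, limma adjusted p = 0.136). The log2 fold change of S100a8 was 1.44 without knockout replicate 1 and 1.62 without WT replicate 1. It was 0.67 without knockout replicate 2 and 0.49 without WT replicate 3. Each of these fits leaves 1 library in a group, so only the effect size is given.

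S100a9 (Entrez 20202, chr3:90692630-90695721) lies 22.6 kb from S100a8 with no gene of the table between them. It measured 3.71 and 4.01 FPKM in the knockout libraries, from 80 and 83 fragments, against 2.52 and 0.637 FPKM in the WT libraries, from 52 and 13 fragments. The knockout libraries were nearly equal, and the WT libraries differed from each other more than WT replicate 1 differed from knockout. Its log2 fold change was 1.02 (SE 0.32, limma adjusted p = 0.139). Without WT replicate 1, which leaves 1 WT library, the log2 fold change was 1.57, and without WT replicate 3 it was 0.46. Per length, S100a9 was at 0.221 and 0.137 of the S100a8 level in the knockout libraries and at 0.163 and 0.0973 in the WT libraries.

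Mmp9 went the other way. It encodes gelatinase B, the protease of gelatinase granules, which other leukocytes also make. Mmp9 (Entrez 17395, chr2:164940326-164955850) measured 34.7 and 27.5 FPKM in the knockout libraries, against 64.4 and 69.7 FPKM in the WT libraries. These values rest on 5419 and 4119 fragments in knockout and 9622 and 10316 fragments in WT, the most of the 8 genes. The groups did not overlap, and the replicates of each lay close together, at 31.1 ± 5.09 FPKM in knockout and 67.0 ± 3.76 FPKM in WT (SD, n = 2 each). Mmp9 fell, with a log2 fold change of −1.09 (SE 0.13, limma adjusted p = 0.00162) and a WT level 2.16 times that of knockout. With voom on recovered fragments its log2 fold change was −1.12 (adjusted p = 0.00203), and it ranged from −1.26 to −0.93 over all alternatives. Its call ended with no filter (limma adjusted p = 0.302) and without the trend (limma adjusted p = 0.0554).

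Mmp8 encodes neutrophil collagenase, a protease of specific granules. Mmp8 (Entrez 17394, chr9:7558429-7568486) measured 0.852 and 0.237 FPKM in the knockout libraries, from 86 and 23 fragments, against 0 and 0.272 FPKM in the WT libraries, from 0 and 26 fragments. It was below the filter, and the groups overlapped, with knockout replicate 2 below WT replicate 3. Knockout replicate 1 was the higher of the pair for Mmp8 and Mmp9, whereas knockout replicate 2 was the higher for the other members.

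Of the 5 members tested, Ngp and Camp rose, Mmp9 fell, and S100a8 and S100a9 did not pass. Over all 9476 tested genes 3.33% were called, 2.40% higher and 0.939% lower in knockout. With voom on recovered fragments, which tested 13411 genes and called 0.619% higher and 0.388% lower, 0 members were called higher and only Mmp9 lower, and 5 of the 7 members tested had an unadjusted p under 0.05. On log2(FPKM + 1), the median log2 fold change of the 5 members that passed the filter, Ngp and Camp through their knockout values, was 1.06, and that of all 9476 tested genes 0.00. The count of 2 higher is no support for a shared direction, since a precursor gene entered the test only if it was high in knockout. In all 8 members, knockout libraries lay above WT without overlap in 5 and below in 1, where 18.9% of the 18155 genes above 0 lay above and 18.4% below. Among the 9476 tested genes these shares were 24.3% and 21.7%.

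**Figure D2:**
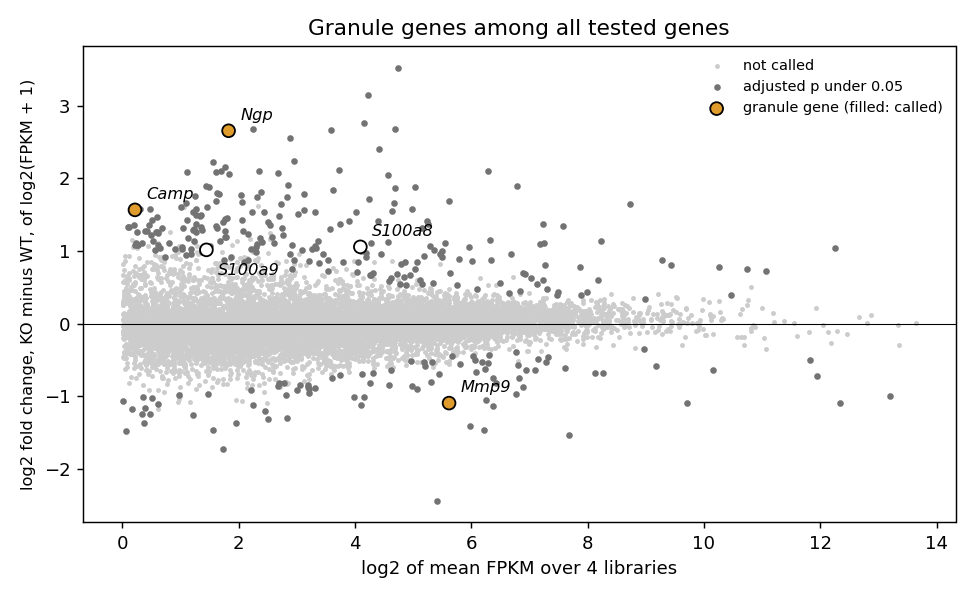
Each point is 1 of the 9476 tested genes, with log2 of its mean FPKM on the horizontal axis and its log2 fold change (knockout minus WT, of log2(FPKM + 1)) on the vertical axis. Dark points were called at an adjusted p under 0.05, and the 5 tested granule genes are named, with Ngp, Camp and Mmp9 filled as called and S100a8 and S100a9 open.

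The precursor genes were set against the mature ones within each library. The mean log2(FPKM + 1) of Ngp, Camp and Ltf minus that of S100a8, S100a9 and Mmp9 was −2.43 and −1.75 in the knockout libraries, against −3.90 and −3.13 in the WT libraries. The groups did not overlap, with means of −2.09 ± 0.48 in knockout and −3.51 ± 0.54 in WT (SD, n = 2 each), a difference of 1.42. A score over chosen members was given no p, and 2 libraries against 2 cannot give an exact permutation p below 0.333. Part of the difference came from Mmp9, which moved against the other genes. Without Mmp9 the balance was −1.78 and −1.35 in knockout and −2.86 and −1.69 in WT, the groups overlapped, and the difference was 0.71.

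On the linear scale the precursor genes stood further apart. Summed FPKM of Ngp, Camp and Ltf was 5.78 and 14.8 in the knockout libraries, against 0.147 and 0.285 in the WT libraries. Summed FPKM of S100a8 and S100a9 was 20.5 and 33.3 in knockout and 18.02 and 7.18 in WT. The precursor sum was therefore 0.282 and 0.444 of the S100 sum in the knockout libraries, against 0.00813 and 0.0396 in the WT libraries, without overlap. Camp kept a similar ratio to Ngp in both knockout libraries, 0.312 and 0.335. In bulk libraries, fewer cells of a type and less RNA per cell cannot be told apart.

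**Figure D3:**
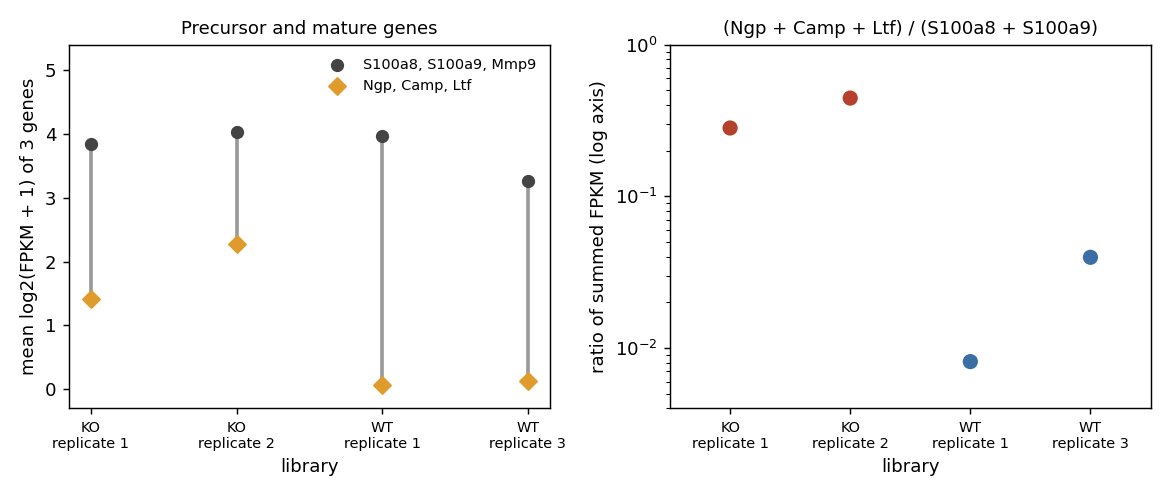
The left panel shows, for each library, the mean log2(FPKM + 1) of the 3 precursor genes (diamonds) and of the 3 mature genes (circles), joined by a line. The right panel shows the summed FPKM of Ngp, Camp and Ltf divided by that of S100a8 and S100a9 on a log axis, at 0.282 and 0.444 in the knockout libraries and 0.00813 and 0.0396 in the WT libraries.

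The order of levels differed between the groups. Mmp9 was the highest member in knockout replicate 1 and in both WT libraries, and S100a8 was above it in knockout replicate 2. Per length, the Mmp9 level was 2.06 and 0.936 times that of S100a8 in the knockout libraries and 4.16 and 10.6 times in the WT libraries. Ngp and S100a9 were level in knockout replicate 1, at 3.77 and 3.71 FPKM, and Ngp was above S100a9 in knockout replicate 2, whereas S100a9 was above Ngp in both WT libraries. Among all genes of the table, Ngp stood at percentiles 63.5 and 74.8 in the knockout libraries and 31.4 and 36.8 in the WT libraries. Mmp9 stood at 87.8 and 85.6 in knockout and 93.1 and 93.5 in WT.

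Other tested genes between the precursor genes were not called. From Camp to Ltf is a stretch of 1.20 Mb on chromosome 9, with Ngp 570 kb from Camp and 596 kb from Ltf. The table holds 24 other genes in this stretch, of which 11 were tested and 0 were called by limma, with 0 at an unadjusted p under 0.05 and 0 called with voom. Limma called 3.33% of all tested genes, so 0 calls among 11 genes says little. Their log2 fold changes ranged from −0.41 to 0.23, with a median of −0.13. No exon of another GENCODE M21 gene overlaps an exon of any of the 8 members.

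Transcripts of the azurophil granule list were sparse, apart from Serpinb1a. Of 6 genes of the list in the table, Mpo (myeloperoxidase) and Ctsg (cathepsin G) were listed at 0 in all 4 libraries. Elane (neutrophil elastase) and Prtn3 (proteinase 3) were above 0 in 1 library each, at 0.0558 FPKM in WT replicate 3 and 0.274 FPKM in knockout replicate 1. Serpinb1a, the 1 tested gene of that list, measured 4.32 and 6.87 FPKM in knockout and 2.66 and 3.47 FPKM in WT. It did not pass (log2 fold change 0.68, limma adjusted p = 0.192, unadjusted p = 0.017). Cebpe, the transcription factor of specific granule genes, was listed at 0 in both knockout libraries and WT replicate 3 and measured 0.147 FPKM in WT replicate 1. Ly6g was sought by symbol, but no measured gene was listed under it.

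Some transcripts of mature neutrophils were also low. Cxcr2, a chemokine receptor, was listed at 0 in both knockout libraries, against 0.00814 and 0.00822 FPKM in the WT libraries. Csf3r, the receptor for the granulocyte growth factor G-CSF, measured 0.482 and 0.568 FPKM in knockout and 0.0219 and 0.172 FPKM in WT. Retnlg, a transcript of mature neutrophils, measured 0.639 and 0.250 FPKM in knockout and 0.711 and 0.760 FPKM in WT. Csf3r was above WT in both knockout libraries and Retnlg below, and neither reached the filter.

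Of the 5 tested neutrophil surface genes 2 rose and 0 fell, among them Fpr1, a formyl peptide receptor (log2 fold change 1.28, SE 0.24, limma adjusted p = 0.0176). Fpr1 measured 1.93 and 2.60 FPKM in knockout and 0.519 and 0.175 FPKM in WT, so it reached the filter only through its knockout values. Of 13 measured surface genes 8 were below the filter and were not tested. The list had a median log2 fold change of 0.26. With voom on recovered fragments 0 of 8 tested surface genes were called.

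Among 11 tested genes of other granules and vesicles, 4 rose and 0 fell, with a median of 0.59. Lyz2 (lysozyme), Anxa1 (annexin A1), Cybb (a subunit of the phagocyte oxidase) and Cfp (properdin) rose, with log2 fold changes of 1.65, 0.62, 1.35 and 1.91, and voom called 3 of 13. Each of these genes is also transcribed in other cells, Lyz2, Cybb and Cfp in macrophages or monocytes. Of 9 tested genes in the list of other mature neutrophil transcripts, Cxcl2 (a chemokine, 1.80) and Wfdc17 (1.58) rose, 0 fell, and the median was −0.07, while voom called 0 of 14. Cxcl2, with a WT mean of 0.862 FPKM, reached the filter only through its knockout values. Spi1, which encodes PU.1, was the 1 gene called among 7 tested granulocyte factors (1.48, SE 0.24, limma adjusted p = 0.0069). The median log2 fold change of these 7 factors was 0.006. With voom 0 of 9 factors were called. Spi1 measured 11.7 and 8.27 FPKM in knockout and 3.61 and 2.29 FPKM in WT. Of 5 tested receptors and inhibitors of the member proteins, among them Timp2 and Bsg, limma called 0, with 0 at an unadjusted p under 0.05, and voom called 0 of 10.

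Markers of other cells moved in the same libraries. Macrophage markers summed to 114 and 184 FPKM in the knockout libraries, against 32.2 and 32.4 FPKM in the WT libraries, with 6 of 9 tested markers higher, 0 lower and 0 of 12 listed at 0 throughout. Among them C1qb, which encodes a chain of the complement component C1q, measured 38.2 and 52.6 FPKM in knockout and 5.82 and 6.44 FPKM in WT (log2 fold change 2.69, adjusted p = 6.18e-05), and Cd68, a lysosomal protein of phagocytes, 23.4 and 35.2 FPKM in knockout and 10.8 and 5.93 FPKM in WT (1.71, adjusted p = 0.00478). Knockout replicate 2 was the higher of the pair for the macrophage sum as for Ngp, Camp and Ltf. The same order held for the monocyte, red cell and platelet, B cell, T cell, hepatocyte, ILC1 and mitochondrial sums. It was thus not particular to macrophage markers, but the T cell (2124 and 2156 FPKM) and ILC1 sums (16332 and 17538 FPKM) differed little. The sums of granulocyte factors (209 and 205 FPKM) and of receptors and inhibitors of the member proteins (209 and 194 FPKM) went the other way. Monocyte markers summed to 223 and 299 FPKM in knockout and 109 and 106 FPKM in WT, with 2 of 7 higher, Ly6c2 (log2 fold change 1.90) and Csf1r (1.28, a receptor that macrophages share). Red cell and platelet markers summed to 12745 and 14306 FPKM in knockout and 24905 and 27027 FPKM in WT, with 7 of 9 lower, the direction of Mmp9, and 1 higher. Hbb-bs, a beta globin, measured 3010 and 3612 FPKM in knockout and 7057 and 7030 FPKM in WT (log2 fold change −1.09). Of 13 mitochondrially encoded mRNAs 11 rose. Of the genes tested, limma called 0 of 1 for eosinophils, basophils and mast cells, 0 of 4 for B cells, 0 of 6 for T cells and 0 of 7 for hepatocytes, where 0, 2, 3 and 3 had an unadjusted p under 0.05, and voom called 0 in each. Of 12 ILC1 genes 3 fell, Gzmc and Gzmb, which encode granzymes, and Cd200r1, with log2 fold changes of −1.53, −0.50 and −0.64. The part of these cells in the values of the granule genes was not tested.

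**Figure D4:**
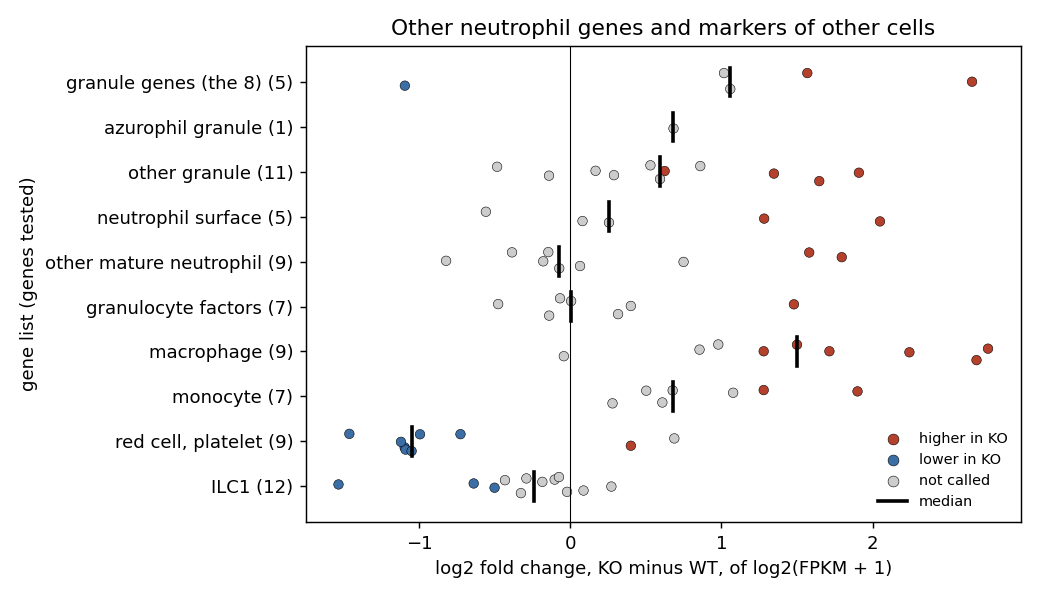
Each point is a tested gene, placed by its log2 fold change (knockout minus WT, of log2(FPKM + 1)) on the horizontal axis, with 1 row for each gene list and the number of tested genes in brackets. Red genes were called higher and blue genes lower in knockout, grey genes were not called, and black bars are medians. The median of macrophage markers, at 1.499, was above that of the granule genes, at 1.06. Other medians were 0.59 for other granule genes, 0.68 for monocyte markers and −1.05 for red cell and platelet markers.

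Genes whose profile over the 4 libraries was most like that of the precursor genes were sought among 6093 genes whose mean reached 5 FPKM, by Euclidean distance between centred log2(FPKM + 1) values. The nearest were Sh2d1a (distance 0.27), Ccnb2 (0.28), Lyz2 (0.28), Klf2 (0.29) and Cfp (0.29). With 4 libraries this measures little beyond the group difference and the excess of knockout replicate 2 over replicate 1. Lyz2 measured 527 and 771 FPKM in the knockout libraries, against 213 and 193 FPKM in the WT libraries, and Cfp 7.25 and 16.9 FPKM against 1.93 and 2.57 FPKM. The mean profile of S100a8, S100a9 and Mmp9 mixes genes of opposite direction and was set by a low WT replicate 3, and its nearest genes were Fancf, Ttc32, Rcl1, Trnau1ap and Rpl39, none of which passed.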

How the data were processed

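RNA-seq libraries of liver ILC1s from 2 Cd200r knockout and 2 WT samples were compared. Per the labels' protocols, TRIzol was used to extract total RNA, cDNA was amplified by a single-cell full-length method, and a transposase-based kit, which does not mark strand, made the libraries. The submitters' processing notes name mm10 as build, and as tools R 3.2.0, HTSeq, HISAT2, fastp and DESeq2, with no role or order. The authors deposited FPKM per gene, with no scaling between libraries stated. Amplification makes fragments that are not independent molecules, so intervals cover counting error only.

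Depth was inferred as the value on which the low FPKM of single-exon genes of GENCODE M21 most often met (11 to 15 genes per library, the next value 10 to 12). Whole lengths within 0.005 fragments were then found for 13113 of 13117 genes above 0 in all 4 libraries. Summed fragments came to between 95.2% and 95.4% of the inferred depth with the smallest such lengths, and to between 105% and 106% with those nearest to GENCODE. A gene read in few libraries may have a multiple of the printed fragments.

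Limma 3.58.1 in R 4.3.3 was fitted to log2(FPKM + 1) of the 4 libraries, two-sided, with no covariate, and log2 fold changes, which understate changes of low genes, are knockout minus WT. It was first tested on simulated data. Alternatives were other pseudocounts, filters, scalings (quantile normalization, TPM, and totals that leave out mitochondrial and haemoglobin genes), no trend, each library left out, and limma's voom on recovered fragments. Coordinates came from RefSeq on GRCm38.p6 by Entrez identifier, which matched 18290 of 18804 (97.3%). The members and lists were chosen with earlier results of these data known. Named genes are the members, up to 4 called genes with the smallest p in each list, defining neutrophil markers, and the 5 genes nearest to each profile. Timp2, Bsg, Serpinb1a and Ncr1 were named outside this rule, after their values were seen, and 1 called gene of the neutrophil surface list is not reported here.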

Additional observations from a re-analysis of the deposited data

How the results depend on the processing

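The number of genes that differed was 316 and stayed within 1.5 times in most alternatives. Limma called 0 genes with no filter (1898 had an unadjusted p under 0.05), 70 without the mean-variance trend and 135 with voom on recovered fragments, an alternative chosen after seeing the data, and from 256 to 574 with a library left out. The 574 came without knockout replicate 1. Of the granule genes 3 were called, against 0 of 8 with no filter (4 had an unadjusted p under 0.05), 0 of 5 without the trend (all 5 had one), 1 of 2 with a mean of at least 5 FPKM, 1 of 7 with voom, and from 2 to 5 with a library left out. These last fits leave 1 library in a group, so their calls are not read gene by gene. Of the 5 tested members none changed direction in any alternative. The precursor minus mature difference of 1.42 was 3.46 and 0.56 with pseudocounts of 0.1 and 5 FPKM, 1.97 as TPM and 0.71 without Mmp9, also chosen after seeing the data. It ranged from 1.04 to 1.81 with a library left out. Its size therefore depends on the pseudocount, since the precursor genes are near 0 in WT, and its sign does not. Ngp, Camp and Ltf rest on 14, 2 and 4 fragments in the WT libraries together, which limits the precision of their ratios. No paired analysis was possible because the groups share only replicate number 1.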
